A study of Astyanax mexicanus with 18 samples.

Results

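Peroxisome proliferator-activated receptors (PPARs) are nuclear receptors that bind fatty acids and pair with a retinoid X receptor (RXR) to switch on genes of lipid metabolism. In mammals PPAR alpha drives fatty acid oxidation in the fasted liver, PPAR gamma drives fat storage and the formation of fat cells, and PPAR delta is found in many tissues and promotes the use of fatty acids as fuel. Fish often carry duplicate copies of these genes, marked by a final a or b in the symbol. All rows of the liver expression table whose symbol was ppara, ppard or pparg, with or without such an ending, were taken, and the PPARGC coactivator genes were not. This gave 5 of 27420 genes: PPARG (ENSAMXG00000043041), pparaa (ENSAMXG00000034838), pparab (ENSAMXG00000043711), pparda (ENSAMXG00000008963) and ppardb (ENSAMXG00000041846). All 5 passed the filter on low values.

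The samples were livers of 4-month-old Astyanax mexicanus, from Pachón cavefish, a blind cave population, and from surface fish, the eyed river form of the species. All fish were raised in the laboratory, kept on 10 mg of feed per meal and then fasted for 4 days. Starved fish were dissected after the fast, and refed fish received another 10 mg and were dissected 3 hours later. The groups were refed Pachón cavefish, starved Pachón cavefish, refed surface fish and starved surface fish, with 3 libraries each, and the labels' protocol counts 3 refed fish in each population and does not say whether each starved library came from 1 fish. The p-values measure the spread between these libraries, and the labels name no batch or date. The 6 ChIP-seq libraries of the series, which concern Pparγ, were not analysed here.

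Levels are given as TPM, a measure of transcript abundance that is scaled by gene length and by the total of the library. TPM can be compared between genes but hold no read depth, which is therefore unknown. In each library 10952 to 12123 genes reached 1 TPM. Folds are log2 fold changes of TPM + 1 with the standard error (SE) of the limma fit, and they understate the change of low genes. A gene was called at a limma adjusted p under 0.05 over all 13157 genes tested. RNA of whole livers was measured, so fewer cells of a type and less RNA per cell cannot be told apart.

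PPARG, the receptor that the title of the series names, was higher in Pachón cavefish whether the fish were refed or starved. It had 52.2, 67.6 and 73.7 TPM in refed Pachón cavefish, against 15.1, 22.4 and 15.4 TPM in refed surface fish. In starved Pachón cavefish it had 29.2, 45.3 and 73.5 TPM, against 19.0, 9.27 and 12.7 TPM in starved surface fish. Every Pachón library was above every surface library, and the values of starved Pachón cavefish were the most widely spread. The mean level in refed fish was 64.5 ± 11.1 TPM in Pachón cavefish and 17.6 ± 4.12 TPM in surface fish (SD, n = 3 each), 3.66 times as high. This was a log2 fold change of 1.82 ± 0.35 (95% interval 1.06 to 2.59, limma adjusted p = 0.00579). Among starved fish the means were 49.3 ± 22.4 TPM in Pachón cavefish and 13.7 ± 4.94 TPM in surface fish (SD, n = 3 each), 3.61 times as high. The log2 fold change was 1.74 ± 0.35 (95% interval 0.97 to 2.50, limma adjusted p = 0.00823), and this call ended when only the 6 starved libraries were fitted (limma adjusted p = 0.0594).

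The meal gave no call for PPARG. Refed and starved libraries overlapped in both populations, and the log2 fold change of refed over starved fish was 0.46 ± 0.35 in Pachón cavefish (95% interval -0.30 to 1.23, limma adjusted p = 0.352). It was 0.38 ± 0.35 in surface fish (95% interval -0.39 to 1.14, limma adjusted p = 0.494). Each of these intervals includes 0 and also a doubling of the level.

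**Figure D1:**
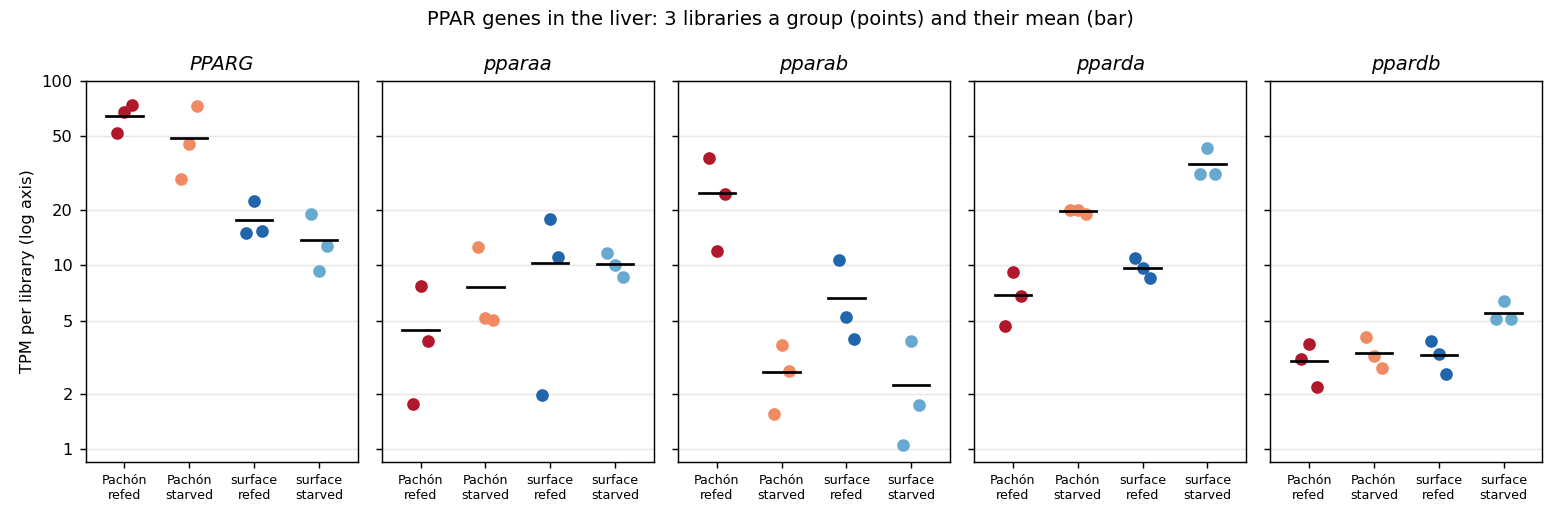
TPM of the 5 PPAR genes on a log axis in 12 liver libraries; each point is a library, with 3 per group, and each bar is the group mean. PPARG separated the populations, pparab was highest in refed Pachón cavefish, pparda was highest in starved surface fish, and pparaa overlapped between the groups of each comparison.

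The copies of PPAR alpha differed from each other. Expression of pparab rose after the meal in Pachón cavefish, while pparaa gave no call in any comparison. The libraries held 38.3, 11.9 and 24.3 TPM of pparab in refed Pachón cavefish, against 1.56, 3.71 and 2.65 TPM in starved Pachón cavefish. In refed surface fish pparab had 10.7, 5.26 and 3.96 TPM, against 1.06, 3.87 and 1.75 TPM in starved surface fish. Refed libraries were above starved libraries in each population, in surface fish by a narrow margin. Mean pparab in Pachón cavefish was 24.8 ± 13.2 TPM refed and 2.64 ± 1.08 TPM starved (SD, n = 3 each), 9.40 times as high after the meal. That is a log2 fold change of 2.73 ± 0.46 (95% interval 1.71 to 3.74, limma adjusted p = 0.00127). In surface fish the means were 6.64 ± 3.58 TPM refed and 2.23 ± 1.46 TPM starved (SD, n = 3 each). There the log2 fold change was 1.24 ± 0.46 (95% interval 0.22 to 2.26, limma adjusted p = 0.0847). It passed the threshold without Surface_starved replicate 2, with 1.58 ± 0.48 (limma adjusted p = 0.0470).

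Between populations, pparab was higher in refed Pachón cavefish than in refed surface fish, with a log2 fold change of 1.71 ± 0.46 (95% interval 0.70 to 2.73, limma adjusted p = 0.0315) and no overlap of the libraries. This call was not firm. It ended without Pachon_refed replicate 1 (1.34, limma adjusted p = 0.111), without Pachon_refed replicate 3 (1.66, limma adjusted p = 0.0878), without Surface_refed replicate 2 (1.62, limma adjusted p = 0.0962) and without Surface_refed replicate 3 (1.45, limma adjusted p = 0.0942). Starved fish of the populations overlapped in pparab, with a log2 fold change of 0.22 ± 0.46 (95% interval -0.79 to 1.24, limma adjusted p = 0.787).

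The other copy, pparaa, had 1.76, 7.76 and 3.86 TPM in refed Pachón cavefish and 12.6, 5.15 and 5.05 TPM in starved Pachón cavefish. It had 1.97, 17.7 and 11.03 TPM in refed surface fish and 11.7, 10.1 and 8.58 TPM in starved surface fish. Values within refed groups spread widely, and each group overlapped the next in the order of means, from 10.2 ± 7.91 TPM in refed surface fish down to 4.46 ± 3.04 TPM in refed Pachón cavefish (SD, n = 3 each). The pparaa log2 fold changes of Pachón over surface fish were -0.84 ± 0.62 refed and -0.47 ± 0.62 starved (limma adjusted p of 0.402 and 0.651). Those of refed over starved fish were -0.70 ± 0.62 in Pachón cavefish and -0.33 ± 0.62 in surface fish (limma adjusted p of 0.437 and 0.755). Their 95% intervals reached from -2.20 to 0.52 between refed populations and from -1.70 to 1.03 for the meal in surface fish, and the SE of pparaa was the largest of the 5 receptors.

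Of the PPAR delta copies, pparda fell after the meal in both populations. It had 4.66, 9.17 and 6.84 TPM in refed Pachón cavefish, against 19.91, 19.99 and 19.08 TPM in starved Pachón cavefish. Refed surface fish had 10.9, 9.71 and 8.52 TPM, against 31.1, 43.3 and 31.4 TPM in starved surface fish. All refed libraries were below all starved ones, and the 3 starved Pachón libraries were nearly equal. In Pachón cavefish the means of 6.89 ± 2.26 TPM refed and 19.7 ± 0.504 TPM starved (SD, n = 3 each) gave a log2 fold change of -1.43 ± 0.23 (95% interval -1.94 to -0.91, limma adjusted p = 0.00106). In surface fish the means of 9.72 ± 1.2 TPM refed and 35.3 ± 6.93 TPM starved (SD, n = 3 each) gave -1.75 ± 0.23 (95% interval -2.26 to -1.23, limma adjusted p = 0.00119).

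Starved Pachón cavefish had less pparda than starved surface fish, with no overlap of the libraries and a log2 fold change of -0.80 ± 0.23 (95% interval -1.31 to -0.28, limma adjusted p = 0.0467). This value lay at the threshold, and the call stood in 5 of 24 alternative analyses, with adjusted p up to 0.131. Of the 12 libraries, leaving out any but Pachon_refed replicate 1 or Pachon_refed replicate 2 ended it, with log2 fold changes of -0.88 to -0.64. Refed fish of the populations overlapped in pparda, with -0.48 ± 0.23 (95% interval -0.99 to 0.04, limma adjusted p = 0.202).

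The low copy ppardb gave no call. Its values were 3.11, 3.73 and 2.17 TPM in refed Pachón cavefish and 4.09, 3.22 and 2.76 TPM in starved Pachón cavefish. They were 3.90, 3.31 and 2.58 TPM in refed surface fish and 5.08, 6.38 and 5.12 TPM in starved surface fish. Starved surface fish stood above all other libraries, and the other 3 groups overlapped. The ppardb log2 fold changes against starved surface fish were -0.59 ± 0.20 for starved Pachón cavefish (limma adjusted p = 0.0812) and -0.62 ± 0.20 for refed surface fish (limma adjusted p = 0.0561). The others were -0.13 ± 0.20 for the meal in Pachón cavefish (limma adjusted p = 0.683) and -0.10 ± 0.20 between refed populations (limma adjusted p = 0.789).

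**Figure D2:**
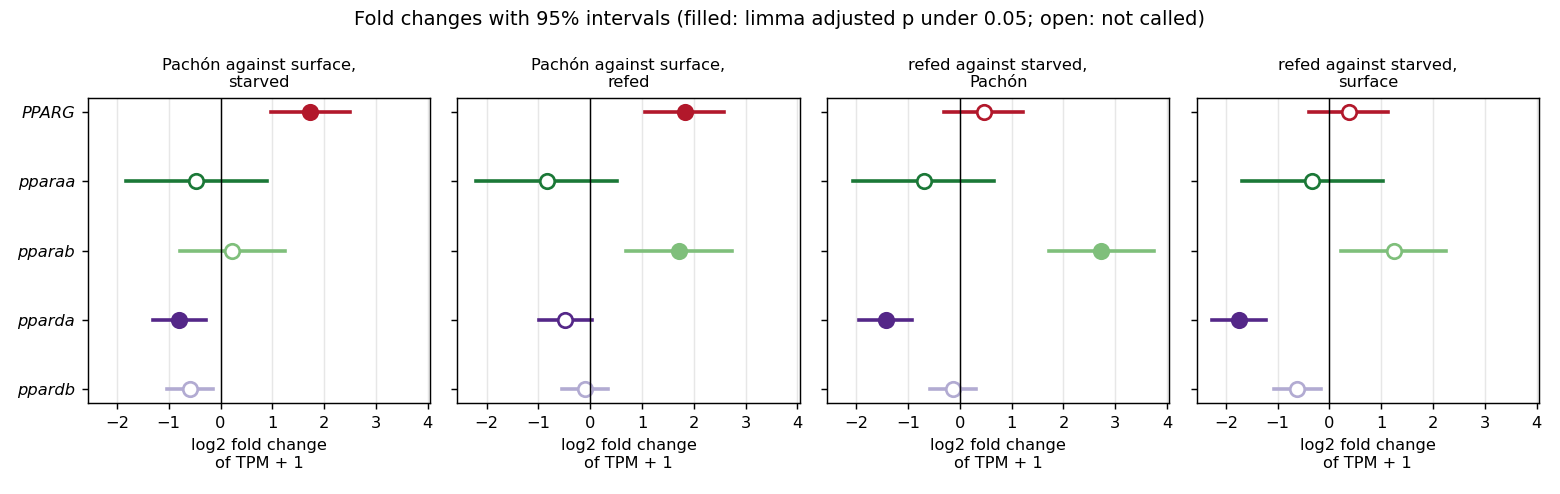
Log2 fold changes of TPM + 1 with 95% intervals for the 5 PPAR genes in 4 comparisons; filled points have a limma adjusted p under 0.05 and open points do not. PPARG was called between the populations in both feeding states, pparda for the meal in both populations and, at the threshold, between starved populations, and pparab for the meal in Pachón cavefish and between refed populations.

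Set against all genes, 2 of the 5 receptors were called between starved populations, where 13.1% of tested genes were called, and 2 of 5 between refed populations, where 13.4% were. For the meal, 2 of 5 were called in Pachón cavefish, where 30.6% of tested genes were called, and 1 of 5 in surface fish, where 18.7% were. The libraries of the groups did not overlap for 3 receptors between starved populations (34.2% of tested genes), for 2 between refed populations (35.8%), for 2 with the Pachón meal (51% of tested genes) and for 3 with the surface meal (32.7%). The counts called for the meal in both populations, and the counts without overlap between refed populations and with the Pachón meal, are thus near the shares among all genes, and the receptors were chosen with such results known.

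The response to the meal was compared between the populations with an interaction term, in which 9 of the 13157 genes were called, 0.0684% of those tested, of which 8 (0.0608%) were higher and 1 (0.0076%) lower in Pachón minus surface fish. No receptor was among them. The median difference over all tested genes was 0.29, and under median-of-ratios scaling 6 genes were called higher and 7 lower. At an unadjusted limma p under 0.05 there were 2176 genes, with 14.2% of all tested genes higher and 2.31% lower. Of the receptors, pparab alone was below that threshold, with a Pachón minus surface response of 1.49 ± 0.65 on the log2 scale (95% interval 0.05 to 2.92, limma adjusted p = 0.286). Over the alternative analyses this value ran from 0.77 to 1.92, with a limma adjusted p of up to 0.673. For pparda the difference was 0.32 ± 0.33 (95% interval -0.41 to 1.05, limma adjusted p = 0.649). For ppardb it was 0.49 ± 0.29, for pparaa -0.37 ± 0.88 and for PPARG 0.09 ± 0.49 (limma adjusted p of 0.408, 0.862 and 0.949). The last changed sign under each of 3 other scalings of the TPM.

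The shares of the 5 genes in their summed TPM, a measure of RNA and not of protein, differed between the groups. How reads shared by paralogues were divided is not given, which limits comparisons between the copies. PPARG was the highest of the 5 genes in all 3 libraries of refed Pachón cavefish, starved Pachón cavefish and refed surface fish, and pparda was the highest in all 3 libraries of starved surface fish. The second place went to pparab in all refed Pachón libraries and to pparda in all starved Pachón libraries. Of the summed TPM of the 5 genes, PPARG took 62.1% ± 8.58 in refed Pachón cavefish, 57.8% ± 14.0 in starved Pachón cavefish, 36.9% ± 1.47 in refed surface fish and 20.7% ± 7.65 in starved surface fish (SD, n = 3 each). The share of pparda was 6.66%, 24.6%, 20.9% and 52.6% in the same order of groups, and that of pparab 24.0%, 3.23%, 14.6% and 3.27%. The sum itself was 103.7 ± 6.20 TPM in refed Pachón cavefish, 82.6 ± 18.4 TPM in starved Pachón cavefish, 47.5 ± 9.46 TPM in refed surface fish and 66.8 ± 6.71 TPM in starved surface fish (SD, n = 3 each). Refed Pachón and refed surface fish did not overlap in the sum, and starved Pachón and starved surface fish did.

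**Figure D3:**
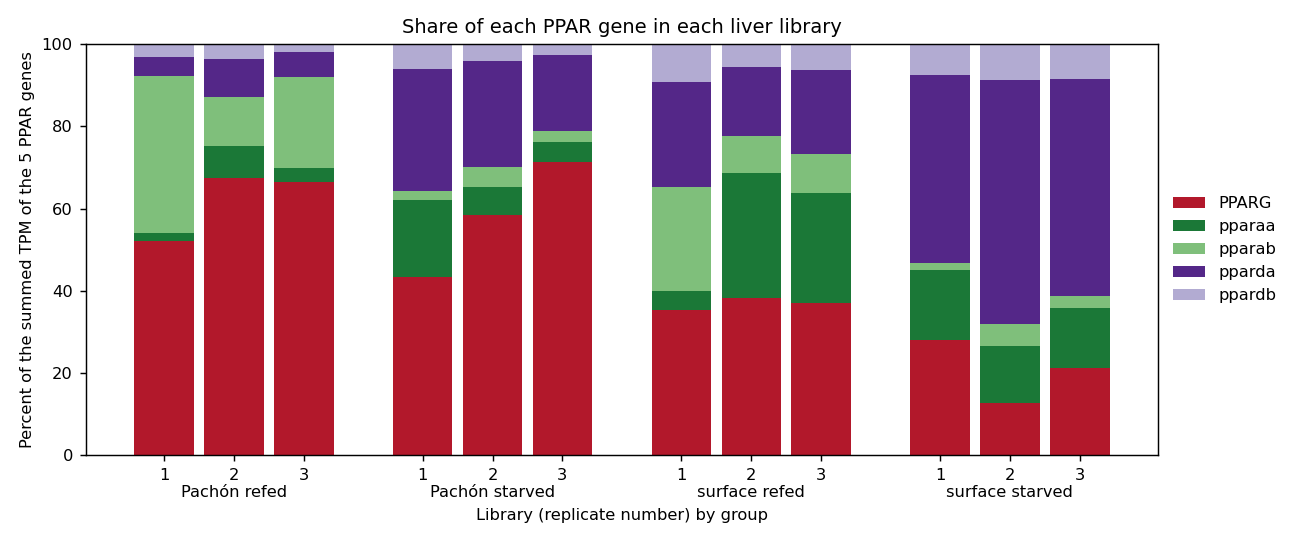
Percent of the summed TPM of the 5 PPAR genes held by each gene, 1 bar per liver library, by group. PPARG took the largest part in every Pachón library and in refed surface fish, and pparda in the 3 starved surface libraries; pparab was widest in refed Pachón replicate 1.

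A ratio of 2 genes within a library does not depend on how the TPM were scaled, apart from the 1 TPM added to each. The 10 ratios between receptors were compared by population and by meal with exact two-sided permutation tests, which permuted labels within the other factor over 400 relabelings. The smallest p this design allows is 0.005, and p was adjusted over the 20 tests. The log2 ratio of PPARG to pparda averaged 3.08 ± 0.28 in refed Pachón cavefish, 1.19 ± 0.68 in starved Pachón cavefish, 0.78 ± 0.35 in refed surface fish and -1.34 ± 0.72 in starved surface fish (SD, n = 3 each). PPARG was below pparda only in the 3 libraries of starved surface fish. The ratio was higher in Pachón cavefish than in surface fish by 2.30 refed and 2.53 starved on the log2 scale (exact permutation p = 0.005, adjusted p = 0.0125). It was higher in refed than in starved fish by 1.89 in Pachón cavefish and 2.12 in surface fish (exact permutation p = 0.005, adjusted p = 0.0125).

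The ratio of PPARG to pparaa was also higher in Pachón cavefish than in surface fish, by 2.66 refed and 2.21 starved (exact permutation p = 0.005, adjusted p = 0.0125), as was that of PPARG to ppardb, by 2.12 on average (exact permutation p = 0.005, adjusted p = 0.0125). For PPARG to pparab the population difference averaged 0.81 (exact permutation p = 0.185, adjusted p = 0.218), which misses the threshold. The meal lowered the ratio of PPARG to pparab by 2.27 in Pachón cavefish and by 0.86 in surface fish (mean -1.57, exact permutation p = 0.02, adjusted p = 0.0364). This call ended without Pachon_refed replicate 1, any 1 of the 3 starved Pachón libraries, Surface_refed replicate 1 or 3, or Surface_starved replicate 1 or 3, with values of -1.68 to -1.30 and an exact permutation adjusted p of up to 0.0769.

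The ratio between the copies of a receptor changed with the meal. The log2 ratio of pparab to pparaa averaged 2.26 ± 1.64 in refed and -1.17 ± 1.08 in starved Pachón cavefish, and -0.29 ± 1.97 in refed and -1.87 ± 0.72 in starved surface fish (SD, n = 3 each). In refed Pachón cavefish pparab was above pparaa in all 3 libraries, and in starved fish of both populations it was below in all. Of the refed surface libraries, replicate 1 alone had more pparab than pparaa. The meal raised this ratio by 3.43 in Pachón cavefish and 1.58 in surface fish (exact permutation p = 0.015, adjusted p = 0.03). The call ended without any 1 of the 3 starved Pachón libraries and without Surface_starved replicate 1 or 3, with values of 2.19 to 2.70 and an exact permutation adjusted p of up to 0.075. The ratio of pparda to ppardb fell with the meal, by 1.30 in Pachón cavefish and 1.13 in surface fish (exact permutation p = 0.005, adjusted p = 0.0125). The widest shift was that of pparab to pparda, which was higher in refed than in starved fish by 4.16 in Pachón cavefish and by 2.99 in surface fish (exact permutation p = 0.005, adjusted p = 0.0125).

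**Figure D4:**
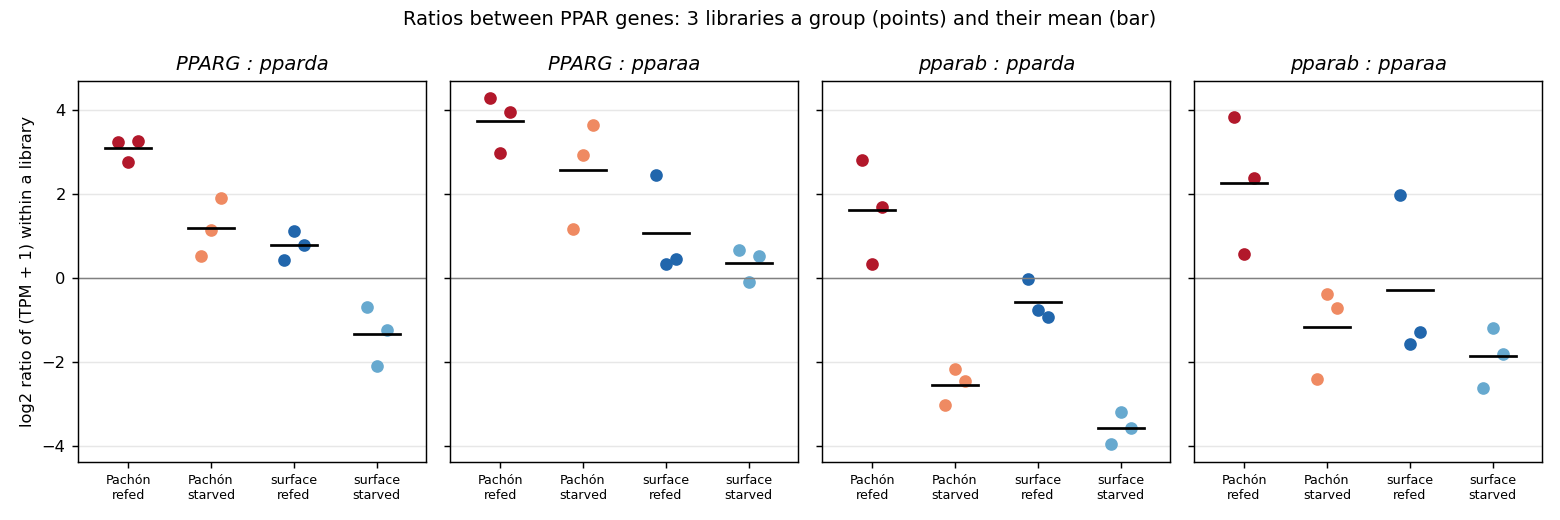
Log2 ratio of (TPM + 1) of 2 PPAR genes within each library, for 4 of the 10 ratios; each point is a library, with 3 per group, bars are group means and the grey line marks equal levels. PPARG to pparda was below the line only in starved surface fish, and pparab to pparaa was above it in all 3 refed Pachón libraries and in replicate 1 of refed surface fish.

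Partners of the receptors were followed in a list of RXR, coactivator and corepressor genes, of which 24 were tested. Between starved populations limma called 0, against 6.04% higher and 7.02% lower of all genes, while 1 was higher and 5 were lower in Pachón cavefish at an unadjusted p under 0.05, against 11.3% and 17.7% of all genes. Without Surface_refed replicate 3, 2 were called lower, and without any 1 of the 3 starved surface libraries 1 was. Between refed populations 1 was higher in Pachón cavefish and 1 lower, against 9.82% and 3.62% of all genes, and both calls ended without Pachon_refed replicate 2, Pachon_refed replicate 3 or Surface_refed replicate 2. The higher one also ended without Surface_refed replicate 3. With the meal in Pachón cavefish 2 rose and 2 fell, against 22.9% and 7.64% of all genes. In surface fish 1 rose and 4 fell, against 9.03% and 9.68% of all genes, and the 4 became 2 without Surface_refed replicate 3 or Surface_starved replicate 1. The 1 that rose became 3 without Surface_refed replicate 2 and 0 without Surface_refed replicate 1, Surface_refed replicate 3, Surface_starved replicate 1 or Surface_starved replicate 3. The median log2 fold change of the list was -0.29 between starved and 0.00 between refed populations, beside -0.13 and 0.18 over all genes. For the meal it was 0.02 in Pachón cavefish and -0.38 in surface fish, beside 0.17 and -0.04 over all genes.

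The RXR gene with the highest level was rxrgb, singled out after its values were seen, and no comparison called it. It had 35.6, 80.3 and 70.1 TPM in refed Pachón cavefish and 62.8, 122.8 and 111.8 TPM in starved Pachón cavefish. In surface fish it had 94.6, 58.3 and 46.0 TPM refed and 201.9, 109.3 and 138.5 TPM starved. The coactivator gene pprc1, a relative of PGC-1, rose in Pachón cavefish, with 23.8, 19.9 and 11.6 TPM refed against 0.10, 0.28 and 0.13 TPM starved (log2 fold change 4.00 ± 0.62, limma adjusted p = 0.000741). It was called higher after the surface meal too, with 14.0, 1.16 and 13.0 TPM refed against 0.08, 1.21 and 0.67 TPM starved (2.28 ± 0.62, limma adjusted p = 0.0258). There refed replicate 2 overlapped the starved libraries, and the call was not firm. It ended with no filter, with only the compared libraries, and without Surface_refed replicate 1 or 3 or Surface_starved replicate 1 or 3 (limma adjusted p of up to 0.151). Also called for the Pachón meal were tbl1xr1a, a part of corepressor complexes, which fell by 1.22 ± 0.22, and med1, a Mediator subunit that binds PPARs, which rose by 0.76 ± 0.18 (limma adjusted p of 0.00198 and 0.00841). Neither was called for the surface meal, at -0.57 and 0.17 (limma adjusted p of 0.1 and 0.57). PGC-1 alpha gene ppargc1a gave no call, with 5.51 to 6.05 TPM in refed and 4.89 to 6.70 TPM in starved Pachón cavefish, and 3.11 to 24.5 TPM in refed and 1.79 to 9.96 TPM in starved surface fish.

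Genes known as PPAR alpha targets in mammals, mostly of fatty acid oxidation, made a list of 39 tested genes. Between starved populations 1 of them was higher and 6 were lower in Pachón cavefish, against 6.04% and 7.02% of all genes, with a list median of -0.57 beside -0.13 over all genes. The 6 became 3 without Pachon_starved replicate 3 or Surface_starved replicate 2, and the 1 became 2 without the same surface library. The peroxisomal beta-oxidation gene hsd17b4 averaged 102 ± 12.9 TPM in starved Pachón cavefish and 323 ± 49.5 TPM in starved surface fish (log2 fold change -1.65 ± 0.22, limma adjusted p = 0.000665). The peroxisomal thiolase gene acaa1 had 100 ± 43.1 TPM in starved Pachón cavefish and 462 ± 220 TPM in starved surface fish (-2.16 ± 0.36, limma adjusted p = 0.0028). The member that was higher, acsl1a, encodes an enzyme that activates long-chain fatty acids. It had 3.83 to 5.10 TPM in starved Pachón cavefish, against 0.21 to 0.37 TPM in starved surface fish. Between refed populations 2 members were higher and 2 lower, against 9.82% and 3.62% of all genes (list median -0.12 beside 0.18). The 2 lower became 0 without Pachon_refed replicate 3, 1 without Pachon_refed replicate 1, Surface_refed replicate 2 or Surface_refed replicate 3, and 4 without Pachon_starved replicate 1. Among the higher was creb3l3b, a liver factor that acts together with PPAR alpha in mouse, with 16.1 ± 8.06 TPM in refed Pachón cavefish and 3.12 ± 1.51 TPM in refed surface fish (2.01 ± 0.32, limma adjusted p = 0.00211).

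With the meal 1 PPAR alpha target rose and 8 fell in Pachón cavefish, where 22.9% of all genes rose and 7.64% fell (list median -0.32 beside 0.17 over all genes). In surface fish 0 rose and 9 fell, where 9.03% of all genes rose and 9.68% fell (median -0.89 beside -0.04). At an unadjusted limma p under 0.05, 0 rose and 20 fell in surface fish, against 15.7% and 17.4% of all genes. In Pachón cavefish 1 rose and 8 fell at that threshold, which 5404 of the 13157 tested genes passed in either direction. The 8 called at the adjusted p became 4 without Pachon_refed replicate 1, Pachon_refed replicate 3 or Pachon_starved replicate 1 and 5 without Pachon_refed replicate 2, and the 9 became 14 without Surface_starved replicate 1. The 1 that rose became 2 without Pachon_starved replicate 1 and 0 without Pachon_starved replicate 3 or any 1 of the 3 refed Pachón libraries. The smallest p in both populations was that of crot, which encodes a carnitine transferase that moves fatty acids out of peroxisomes. It had 6.07, 8.58 and 4.45 TPM in refed Pachón cavefish, against 51.0, 41.1 and 42.6 TPM in starved Pachón cavefish (log2 fold change -2.67 ± 0.27, limma adjusted p = 0.000134). In surface fish crot had 13.6, 14.7 and 17.4 TPM refed, against 76.5, 138.1 and 86.1 TPM starved (-2.60 ± 0.27, limma adjusted p = 0.000453). The mitochondrial dehydrogenase gene acadvl fell by 1.49 ± 0.24 in Pachón cavefish and by 1.79 ± 0.24 in surface fish (limma adjusted p of 0.000931 and 0.00116). The gene pdk4 encodes a kinase that restrains the burning of glucose, and it fell by 2.66 ± 0.54 in Pachón cavefish and by 3.57 ± 0.54 in surface fish (limma adjusted p of 0.00333 and 0.00182). In the same Pachón comparison pparab rose and pparaa was not called.

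Genes known as PPAR gamma targets or adipogenic genes in mammals, with some of their relatives, made a list of 23 tested genes. Between the populations, calls of this list went in both directions, and their relation to the PPARG level was not tested. Between starved populations 1 was higher and 3 were lower in Pachón cavefish, against 6.04% and 7.02% of all genes, with a list median of -0.01 beside -0.13 over all genes. The 1 was acsl1a, described above among the PPAR alpha targets (log2 fold change 2.05, limma adjusted p = 0.000676). It was called higher between refed populations too (1.36, limma adjusted p = 0.00764). Some genes, acsl1a, lpin1 and cebpa among them, are in more than 1 list, so their calls are counted in each. The 1 became 2 without Surface_starved replicate 2. Between refed populations 5 were higher and 2 lower, against 9.82% and 3.62% of all genes, with a median of 0.50 beside 0.18, and the 5 became 3 without Pachon_refed replicate 2 or Pachon_refed replicate 3. Among the 5 was aqp7, which passed the filter on low values only through the refed Pachón libraries. The lipid droplet gene cidec, a PPAR gamma target in mouse liver, was lower in Pachón cavefish in both states. It had 8.51, 9.93 and 9.01 TPM in refed Pachón cavefish, against 17.5, 24.5 and 28.7 TPM in refed surface fish (log2 fold change -1.25 ± 0.24, limma adjusted p = 0.00653). In starved fish cidec had 10.2, 15.2 and 9.05 TPM in Pachón cavefish, against 38.3, 28.6 and 30.3 TPM in surface fish (-1.44 ± 0.24, limma adjusted p = 0.00328). The monoglyceride lipase gene mgll was lower too, with 1.47 ± 0.160 TPM in starved Pachón cavefish and 11.2 ± 3.20 TPM in starved surface fish (-2.28 ± 0.19, limma adjusted p = 2.12e-05). In refed fish mgll had 0.63, 0.91 and 0.88 TPM in Pachón cavefish, against 2.99, 2.34 and 2.50 TPM in surface fish (limma adjusted p = 0.00614). By contrast pck2, a mitochondrial enzyme that makes phosphoenolpyruvate, was higher in refed Pachón cavefish, with 694 ± 28.7 TPM there and 232 ± 62.5 TPM in refed surface fish (1.61 ± 0.27, limma adjusted p = 0.00259). Its relative pck1 had 151, 1262 and 596 TPM in starved Pachón cavefish, against 66.4, 74.3 and 97.2 TPM in starved surface fish, without overlap and without a call. Refed populations overlapped in pck1. The lipoprotein lipase gene lpl was not called, with 65.4 to 231 TPM in refed Pachón cavefish, 104 to 200 TPM in starved Pachón cavefish, 195 to 566 TPM in refed surface fish and 200 to 355 TPM in starved surface fish. The fatty acid transporter gene cd36 was listed at 0 in all 12 libraries.

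With the meal 4 PPAR gamma targets rose and 1 fell in Pachón cavefish, where 22.9% of all genes rose and 7.64% fell (median -0.01 beside 0.17 over all genes). In surface fish 2 rose and 2 fell, near the 9.03% and 9.68% of all genes (median -0.36 beside -0.04). The 4 became 2 without Pachon_refed replicate 1, and aqp7 among them passed the filter only through the refed Pachón libraries. The 1 that fell became 2 without Pachon_starved replicate 1 or Surface_starved replicate 2 and 0 without Pachon_refed replicate 1, Pachon_refed replicate 3, Pachon_starved replicate 2 or Pachon_starved replicate 3. The 2 that fell in surface fish became 5 without Surface_refed replicate 1, and 1 without any 1 of the 3 refed Pachón libraries, Pachon_starved replicate 3, Surface_refed replicate 2, Surface_starved replicate 1 or Surface_starved replicate 2. The desaturase gene scd, which makes monounsaturated fatty acids, and cebpa, a liver and fat cell factor that acts with PPAR gamma, rose in both populations. In surface fish cebpa had 47.6, 131.7 and 70.0 TPM refed against 3.22, 1.08 and 9.83 TPM starved (4.08 ± 0.72, limma adjusted p = 0.0039). In Pachón cavefish it had 217.0, 67.2 and 58.8 TPM refed against 1.18, 8.85 and 4.68 TPM starved (4.28 ± 0.72, limma adjusted p = 0.00124). PPARG itself was not called for the meal in either population.

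Factors known to act on the Pparg gene or to bind beside it, clock and C/EBP factors among them, made a list of 34 tested genes. Between starved populations 3 were higher and 2 lower in Pachón cavefish, against 6.04% and 7.02% of all genes (median 0.13 beside -0.13 over all genes). Between refed populations 4 were higher and 2 lower, against 9.82% and 3.62% of all genes (median 0.21 beside 0.18). The 3 became 1 without Pachon_starved replicate 2 or Pachon_starved replicate 3, and the 4 became 1 without Pachon_refed replicate 2 or Surface_refed replicate 2 and 2 without Pachon_refed replicate 3. The 2 lower between starved populations became 0 without Pachon_starved replicate 3 or Surface_starved replicate 1, and 1 without any 1 of the 3 refed Pachón libraries, Pachon_starved replicate 1, Surface_starved replicate 2 or Surface_starved replicate 3. The 2 lower between refed populations became 1 without Pachon_refed replicate 1, Pachon_refed replicate 2, Pachon_starved replicate 2, Pachon_starved replicate 3, Surface_refed replicate 2, Surface_refed replicate 3 or Surface_starved replicate 3. The clock output gene dbpb was higher in Pachón cavefish in both states, with 10.97, 13.7 and 17.2 TPM refed and 8.79, 12.8 and 12 TPM starved. Surface fish had 2.48, 0.63 and 0.70 TPM refed and 3.90, 0.45 and 0.95 TPM starved. Its log2 fold changes were 2.79 ± 0.42 refed and 2.33 ± 0.42 starved (limma adjusted p of 0.00154 and 0.00495), and as with PPARG no Pachón library overlapped a surface library. The clock repressor gene per2, whose protein binds PPAR gamma in mouse, rose with the meal in Pachón cavefish to 4.39 ± 0.645 TPM, against 1.86 ± 0.346 TPM starved (0.92 ± 0.18, limma adjusted p = 0.00315), and was not called between the populations. In surface fish per2 had 3.27, 2.85 and 4.04 TPM refed against 2.55, 1.77 and 2.59 TPM starved, without overlap and without a call. For the meal, 3 of the list rose and 6 fell in Pachón cavefish, where 22.9% of all genes rose and 7.64% fell (median 0.02 beside 0.17). The 3 became 5 without Surface_refed replicate 1 and 6 without Surface_refed replicate 3. In surface fish 1 rose and 3 fell, where 9.03% of all genes rose and 9.68% fell (median -0.26 beside -0.04). The 3 that fell in surface fish became 5 without Surface_refed replicate 1 and 1 without Surface_starved replicate 1, and the 1 that rose became 2 without Surface_starved replicate 1. The insulin-restrained factor gene foxo1a fell in Pachón cavefish, with 0.333 ± 0.146 TPM refed and 26.8 ± 8.96 TPM starved (-4.33 ± 0.95, limma adjusted p = 0.00541), and was not called in surface fish (-1.49, limma adjusted p = 0.306). Surface fish had 14.2, 0.18 and 0.36 TPM refed against 1.43, 7.55 and 24.9 TPM starved. Surface_refed replicates 2 and 3 were thus below all starved surface libraries, and Surface_refed replicate 1 was not. Of the 4 lists 0 members were called by limma for a difference in the response to the meal. At an unadjusted p under 0.05 the response was higher in Pachón cavefish for 2 partners, 3 PPAR alpha targets, 5 PPAR gamma targets and 2 upstream factors, where 14.2% of all genes were, and lower for 1 partner, where 2.31% of all genes were.

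**Figure D5:**
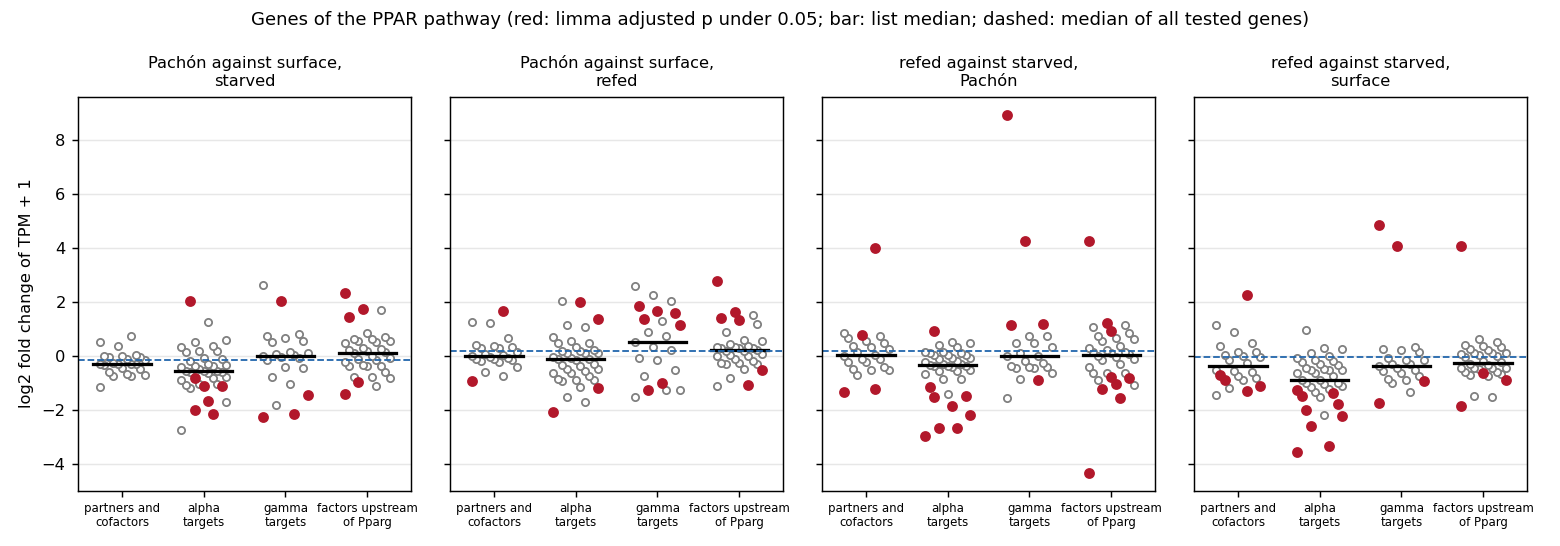
Log2 fold changes of TPM + 1 of the tested members of 4 gene lists (partners and cofactors, PPAR alpha targets, PPAR gamma targets, factors upstream of Pparg) in 4 comparisons; each point is a gene, red points have a limma adjusted p under 0.05, black bars are list medians and the dashed line is the median of all tested genes. Of 39 PPAR alpha targets tested, 8 fell and 1 rose with the meal in Pachón cavefish, where 7.64% of all genes fell and 22.9% rose. In surface fish 9 fell and 0 rose, where 9.68% of all genes fell and 9.03% rose. PPAR gamma targets were called in both directions between the populations.

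For each receptor the genes with the most similar profile were sought among 6524 genes with a symbol, all of which averaged 5 TPM or more in some group. The measure was the root mean square difference of log2(TPM + 1), each gene centred on its mean over the 12 libraries, so that the points share libraries and groups. For PPARG, whose own root mean square deviation was 0.99, they were msi2a (0.36), zgc:110410 (0.40), specc1lb (0.40), hal (0.43) and a copy of wu:fd46c06 (0.44). The histidine breakdown gene hal averaged 1388 ± 139 TPM in refed Pachón cavefish and 621 ± 89.1 TPM in refed surface fish. For pparda (0.89) the nearest were dcaf8 (0.22), slc5a6b (0.22), acadvl (0.23), bnip3lb (0.25) and NABP2 (0.26). For pparab (1.28) they were lman2la (0.43), dhtkd1 (0.45), dop1b (0.45), acot8 (0.47) and etnppl (0.48). The peroxisomal thioesterase gene acot8 had 41.6 ± 18.6 TPM in refed and 3.8 ± 2.91 TPM in starved Pachón cavefish. For pparaa (0.84) the likeness was looser, at 0.43 to 0.50, with si:dkey-121b10.7, mppe1, plod1a, tbc1d25 and hivep3b. For ppardb (0.34) it ran from 0.20 to 0.21, with prkar1aa, zc3h4, mib2, sft2d3 and cltb, beside a gene that itself varied little.

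Marker genes of other cell types were summed in each library, since PPARG marks fat cells and some macrophages in mammals. Hepatocyte markers summed to 183928 to 225508 TPM in refed and 186937 to 231522 TPM in starved Pachón cavefish. In surface fish they summed to 199166 to 243004 TPM refed and 110376 to 214126 TPM starved, with the lowest in Surface_starved replicate 2. The 10 adipocyte marker genes with a row summed to 80.2 to 124 TPM in refed and 81.1 to 212 TPM in starved Pachón cavefish, against 154 to 352 TPM in refed and 315 to 1445 TPM in starved surface fish, the opposite order to PPARG. Most of this sum was fabp11a, and the adipocyte genes cidea and lepb were listed at 0 in all libraries. Other adipocyte genes had the order of PPARG in refed fish. The glycerol channel gene aqp7 had 3.76, 1.14 and 1.29 TPM in refed Pachón cavefish, against 0.08, 0.32 and 0.44 TPM in refed surface fish. It passed the filter on low values only through the refed Pachón libraries, so its call there (limma adjusted p = 0.0146) adds no support. The hormone-sensitive lipase gene lipea had 6.91, 5.36 and 4.04 TPM in refed Pachón cavefish, against 1.93, 2.97 and 3.70 TPM in refed surface fish, without overlap and without a call (limma adjusted p = 0.0686). In starved fish both genes overlapped between the populations. The 15 macrophage marker rows, 9 of them copies of MFAP4, summed to 94.3 to 171 TPM in refed and 139 to 457 TPM in starved Pachón cavefish, against 32.8 to 618 TPM in refed and 55.6 to 112 TPM in starved surface fish. In starved fish this sum was higher where PPARG was, though among starved Pachón cavefish replicate 1 had the highest sum and the lowest PPARG, and the part of either list in the PPARG result was not tested. A pair of the MFAP4 copies made up most of the sum where it was high. The lysosomal protease gene ctss2.1 had the same order in starved fish, with 18.03, 9.92 and 9.27 TPM in Pachón cavefish, against 7.35, 3.12 and 2.59 TPM in surface fish. In refed fish it had 22.3, 13.3 and 15.6 TPM in Pachón cavefish, against 2.26, 1.19 and 6.00 TPM in surface fish. As with PPARG, every Pachón library was above every surface library, which was not particular to macrophage genes. The hepatocyte marker gene rbp4 separated the populations too, with 2739 to 3878 TPM in Pachón cavefish and 1464 to 1964 TPM in surface fish. So did the biliary marker gene epcam, with 2.87 to 4.33 TPM and 1.09 to 2.71 TPM. These single genes do not stand for their cell types. The hepatocyte gene tfa had the opposite order in refed fish, with 3267 to 3870 TPM in Pachón cavefish and 4856 to 6353 TPM in surface fish. The biliary gene anxa4 overlapped between the populations. Other macrophage genes had the opposite order in starved fish. The macrophage growth factor receptor gene csf1ra had 0.73, 0.72 and 0.25 TPM in starved Pachón cavefish, against 18.3, 2.1 and 1.12 TPM in starved surface fish. The complement gene c1qc had 5.64, 4.94 and 3.10 TPM in starved Pachón cavefish, against 29.3, 5.84 and 6.65 TPM in starved surface fish. With the Pachón meal, along which pparab rose and pparda fell, 8 erythrocyte marker genes summed to 292 to 382 TPM in refed and 557 to 618 TPM in starved fish. Most of this sum was hemgn, and nt5c3a of the same list went the other way, with 66.3, 60.3 and 24.2 TPM refed against 8.08, 3.89 and 6.63 TPM starved. The 11 endothelial marker genes summed to 53.4 to 84.2 TPM in refed and 45.3 to 50.0 TPM in starved Pachón cavefish. Of these, stab1 went the other way, with 1.28, 2.87 and 1.87 TPM refed against 4.48, 3.49 and 2.93 TPM starved. The part of the erythrocyte or endothelial genes in the results was not tested.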

How the data were processed

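RNA of 12 liver libraries was analysed. The values are TPM per gene as deposited by the authors, with 2 decimals. The tools named in the submitters' processing notes are RSEM, Bowtie2, STAR 2.6.1c and bcl2fastq 2.18. Which genome build, annotation and strand setting they used, and how reads shared by paralogues were divided, is not given in the sources used here. The labels' protocols describe stranded libraries of polyA RNA and single reads.

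From the TPM, log2(TPM + 1) was fitted with limma 3.58.1 in R 4.3.3, with 4 group means, an eBayes prior with a trend, 8 residual degrees of freedom and 3.303 prior ones, for the 13157 genes that reached 1 TPM in 3 or more of the 12 libraries. Within a comparison, p-values of all these genes were adjusted by the method of Benjamini and Hochberg. The fit was tested on simulated data, with independent normal values and changes in a small part of the genes of refed Pachón cavefish. This test cannot judge the scaling of the TPM or the weight of single atypical libraries. The median log2 fold change of all tested genes, to which changes should be read, was -0.13 for starved and 0.18 for refed Pachón over surface fish, 0.17 for the Pachón meal, -0.04 for the surface meal, and 0.29 for the difference in response. Under median-of-ratios scaling these were -0.03, 0.02, -0.02, 0 and 0.03. Of all genes called between refed populations 73.1% were higher, against 54.8% under that scaling. For the Pachón meal 75% were higher against 56.4%, for the surface meal 48.3% against 60.1% when the 20 most abundant genes were left out of the scaling, and between starved populations 46.2% against 56.2% under median-of-ratios scaling. For the difference in response 8 genes were higher and 1 lower, against 6 and 7 under median-of-ratios scaling.

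The receptors and gene lists were chosen with earlier results of these data known, so lists are described by counts and medians. The rule found 5 receptors where 3 had been planned for, so ratio tests were adjusted over 20 rather than 6. Named genes are all receptors, the genes most like them, a fixed set of pathway genes, and up to 4 called members of each list and comparison with the smallest p. Of 64 named calls 37 stood under every alternative, and the text names mostly these. Some genes that the rule names are not reported here. Alternatives were other pseudocounts, filters, scalings, weights, priors and fits, and libraries left out. Among 66 pairs of libraries 0 were identical. Within groups the lowest correlation over genes was 0.900, between Surface_starved replicate 1 and Surface_starved replicate 2. Replicate numbers were not taken to pair the samples. The correlation of deviations ran from -0.245 to 0.123 over 12 same-number pairs, and 1 was over 0.1. Pairs with different numbers were not compared, so this cannot show whether the samples were paired. Python 3.11.15 with numpy 2.4.6 and pandas 2.3.3 ran the permutation tests.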

Additional observations from a re-analysis of the deposited data

How the results depend on the processing

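Calls of the meal for pparda in both populations and pparab in Pachón cavefish, and of PPARG between refed populations, stood in all 24 alternatives. The PPARG call between starved populations ended only when only the compared libraries were fitted (1.74, limma adjusted p = 0.0594). Between starved populations the pparda call ended with a pseudocount of 0.1 (-0.82) or 0.5 (-0.81), no filter (-0.80), median-of-ratios scaling (-0.67), quantile normalization (-0.68), scaling without the 20 most abundant genes (-0.73), only the compared libraries (-0.80), the replicate block (-0.80) and without both Surface_starved replicate 2 and Pachon_refed replicate 1 (-0.64). Between refed populations the pparab call ended with no filter (1.71), median-of-ratios scaling (1.504), quantile normalization (1.45), only the compared libraries (1.71), the replicate block (1.71) and without both libraries (1.34). Without both, pparab was called for the surface meal (1.58, limma adjusted p = 0.0343), and the difference in response of pparaa turned to 0.05. The difference in response of PPARG turned to -0.25 by median-of-ratios, -0.21 by quantile normalization, -0.053 without the 20 most abundant genes and -0.0073 with library weights. The causes were not tested.

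With 1 library left out the log2 values ran from -0.88 to -0.64 for pparda between starved populations, 1.34 to 2.14 for pparab between refed populations and -0.052 to 0.57 between starved ones, and 0.88 to 1.58 for pparab with the surface meal. They ran from -0.88 to 0.44 for pparaa with the surface meal and -1.15 to 0.18 for its difference in response, -0.23 to 0.42 for that of PPARG (0.46 without both libraries), and for ppardb -0.23 to 0.060 between refed populations and -0.26 to 0.029 with the Pachón meal. Ratios ran from -1.85 to -1.30 for PPARG to pparab and 1.93 to 2.93 for pparab to pparaa by meal, both with adjusted p over 0.05 at one end (0.0769 and 0.075). By population, pparaa to pparda ran from -0.45 to 0.26 (0.0044 without both libraries), and by meal pparaa to ppardb from -0.41 to 0.30 (0.034 without both). The ratio of pparab to ppardb by population, not described above, kept its sign but lost its call without 6 single libraries (1.14 to 1.59).

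Replicate numbers were not taken to pair the samples in the main tests. With the replicate block as sign flips over 6 pairs, the smallest p is 0.03125. No ratio was called, but ratios at that smallest p still had an exact permutation adjusted p of 0.0625. PPARG to pparaa by population (2.43) was among them. The lack of calls therefore cannot show whether these ratios depend on pairing. Above the smallest p were PPARG to pparab by meal (-1.57, exact permutation p = 0.09375, adjusted p = 0.125) and pparab to pparaa by meal (2.501, exact permutation p = 0.0625, adjusted p = 0.0962). Over the alternatives 843 to 2467 genes were called between starved populations (1719 as reported), 1017 to 2294 between refed ones (1768), 2729 to 5205 for the Pachón meal (4024), 608 to 2793 for the surface meal (2461) and 0 to 52 for the difference in response (9). List counts also moved over all alternatives, not only the left-out libraries given above. PPAR alpha targets lower between starved populations ran from 3 to 11 (6 as reported), and those that fell with the Pachón meal from 4 to 12 (8). With that meal 0 to 5 PPAR gamma targets fell (1) and 2 to 8 upstream factors rose (3). TPM keep no depth, so the precision of single low values such as ppardb is unknown.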

Other observations

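Within groups, pparaa and pparab were ordered oppositely in 9 of the 12 pairs of libraries that share a group. This was not particular to the PPAR alpha copies. The 10 pairs of receptors ranged from 2 (pparda and ppardb) to 10 (ppardb and PPARG), with 8 for PPARG and pparab and 8 for PPARG and pparda. The pairs of libraries within a group share libraries, so they are not independent. Pachon_refed replicate 1 had the highest pparab (38.3 TPM) and the lowest pparaa (1.76 TPM) of its group, and also the highest scd (7584 TPM, against 1554 and 1097 TPM), fasn, the fatty acid synthase gene (2516 TPM, against 472 and 812 TPM), and aclya, the ATP citrate lyase gene (498 TPM, against 194 and 242 TPM). Surface_refed replicate 1 likewise had the highest pparab (10.7 TPM) and the lowest pparaa (1.97 TPM) of its group, with the highest scd (856 TPM, against 548 and 254 TPM), fasn (91.5 TPM, against 14.4 and 10.1 TPM) and aclya (31.7 TPM, against 13.9 and 19.2 TPM). These libraries and genes were chosen after their values were seen, and no test was made.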
